A study of Mus musculus with 10 samples.

Results

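The high mobility group (HMG) chromatin genes are described here in epithelial cells sorted from mouse pancreatic ductal adenocarcinoma (PDAC). The genes were chosen by name: Hmga1, Hmga2, Hmgb1, Hmgb2, Hmgb3, Hmgn1, Hmgn2, Hmgn3 and Hmgn5, parent genes without their pseudogenes, 9 of 51707 genes with a transcript in the files. They were picked with the group difference of Hmga1 already known, so group differences in gene level below are a description. The 10 libraries came from 2 groups of 5. In all of them KPC organoids of the T6-LOH line, from a genetic mouse model of PDAC, had been transplanted into the pancreas together with cells of the PSC4 line, pancreatic stellate cells that act as fibroblast precursors. The stellate cells were a ROSA control line in 1 group, read as Egfr WT PSC, and an Egfr knockout in the other (Egfr KO PSC). The knockout group used a single clone, B4, and the labels name no edit of Egfr in the epithelial cells. The hosts were NSG mice per the series title, a strain that lacks lymphocytes but keeps macrophages. C57BL/6J is labelled as the strain of all libraries, which leaves host and graft undistinguished. The labels used here hold no age. They also do not state that libraries and mice correspond, so the p-values below speak only of the spread among these libraries.

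HMG proteins are small, abundant chromatin proteins that bind DNA or nucleosomes with little regard for sequence. The HMGA proteins hold the minor groove of AT-rich DNA with short motifs called AT-hooks, are abundant in embryos and return in many carcinomas. Pancreatic carcinoma is among them. HMGB proteins bend DNA with HMG boxes, and HMGB1 also leaves damaged cells and acts as an alarm signal on receptors such as RAGE and Toll-like receptors. HMGN proteins bind the nucleosome core and compete with linker histone H1.

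The sequences that distinguish the main forms of these messages are given first. Hmga1 is spliced into a longer and a shorter coding form, HMGA1a and HMGA1b. The longer coding sequence of 324 bases held 33 bases that the shorter one of 291 bases lacked, at coding positions 103 to 135 counted from the A of the start codon. The segment is shown in capitals between its neighbours, and the line under it is the same place in the shorter form.
Hmga1 longer form: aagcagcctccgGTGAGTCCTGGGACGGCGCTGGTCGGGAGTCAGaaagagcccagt
Hmga1 shorter form: aagcagcctccgaaagagcccagt
Hmga2 is the textbook target of the let-7 microRNAs, so the seed and its matches are shown. Capitals mark the seed, bases 2 to 8 of the microRNA, as listed by RefSeq (GRCm38.p6), and 9 of 10 mature let-7 sequences in that table share it with let-7a.
mmu-let-7a-5p: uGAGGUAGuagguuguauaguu
mmu-let-7g-5p: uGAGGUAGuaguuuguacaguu
The 3′ untranslated region of the main Hmga2 transcript, 2977 bases long, held 4 matches to the seed, CTACCTC, shown in capitals in the order of their distance from the stop codon.
Hmga2 site 1: acattcaatttCTACCTCagcatc
Hmga2 site 2: actcctcaataCTACCTCtgaatg
Hmga2 site 3: tttgcaaggaaCTACCTCcacact
Hmga2 site 4: aaaacacactaCTACCTCttaagt
The main complete transcript of Hmga1 held 1 such match and those of the other 7 genes held 0. Of 14044 tested genes with a complete 3′ untranslated region, 11.4% held at least 1 match and 12 held 4 or more. Among the 2424 genes whose region was as long as that of Hmga2 or longer, 26.4% held a match and 8 held at least 4. The libraries did not measure mature microRNAs, and a match of letters is not a shown site of action.

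Copies of HMG genes are frequent in the genome, and some share nearly the whole coding sequence with their parent. The letters that tell the most abundant copies from their parents are shown in capitals, with positions counted from the A of the parent's start codon. The processed pseudogenes Gm15387 and Gm21596 differ from the 648-base coding sequence of Hmgb1 at 1 base, the same A21G (the parent has A and the copy G). Gm4739 differs from the 633-base coding sequence of Hmgb2 at 2 bases, C555T and C606A.
Hmgb1 at A21G: aggagatcctaaAaagccgagaggc
Gm15387 at A21G: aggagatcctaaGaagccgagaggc
Hmgb2 at C555T: aaagaagaagaaCgaaccagaagat
Gm4739 at C555T: aaagaagaagaaTgaaccagaagat
Hmgb2 at C606A: ggaggaagatgaCgaggaagaagag
Gm4739 at C606A: ggaggaagatgaAgaggaagaagag
Reads inside the shared coding stretch that cover none of these bases cannot be assigned to parent or copy by sequence, which matters for Hmgb1 and Hmgb2 below. For Gm21596 the shared stretch is longer than the coding sequence. It aligned with the Hmgb1 transcript over 1317 bases with 1 mismatch (99.5% identity). A21G does not tell Gm15387 from Gm21596.

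The libraries held between 39534055 and 53816086 estimated counts in genes. Levels are given in CPM, counts with TMM normalisation on a common library total. TPM, the length-scaled unit of the deposited files, is used where genes are compared with each other. Egfr itself lay between 39.8 and 75.0 CPM in control and between 52.2 and 76.7 CPM in knockout libraries; the deletion was in the stellate cells, so this does not check it. The 8 epithelial markers were high everywhere, with summed levels of 15305 to 16866 CPM against 12665 to 23769 CPM. The 10 macrophage markers summed to 272 to 466 CPM in control and 223 to 335 CPM in knockout libraries, mostly through Cd14. Of these genes 9 were tested. The defining Adgre1 lay at 0.0935 to 0.792 CPM. The 10 fibroblast markers summed to 368 to 924 CPM and 344 to 1238 CPM. The mean log2 CPM of the macrophage list ran from 1.89 to 3.19 with Egfr WT PSCs and from 1.14 to 2.15 with Egfr KO PSCs, with 3 of its 9 tested genes higher and 6 lower. None was called, but the 6 lower ones all had an unadjusted p under 0.05, as had 4.6% of all tested genes in that direction. For the fibroblast list it ran from 3.10 to 3.97 and from 2.67 to 3.38, with 3 of 10 higher and 7 lower. Of these, 3 had an unadjusted p under 0.05, all lower, and Col1a1 had 199 ± 55.2 and 96.6 ± 27.2 CPM (SD, n = 5 each; edgeR adjusted p = 0.321). In bulk libraries, fewer cells of a type and less RNA per cell cannot be told apart. The 8 lymphocyte markers reached at most 17 counts in any library, and Cd3g was at 0 in all.

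All 9 HMG genes were expressed in every library, and Hmga1 was by far the most abundant. Its mean over the 10 libraries was 1864 ± 472 TPM (SD), in the 99.7th percentile of the tested genes. Hmgb1 followed at 784 ± 114 TPM, then Hmgn2 at 433 ± 55.5 TPM and Hmgb2 at 220.4 ± 102 TPM. The lower part of the order was Hmgn1 at 106 ± 28.3 TPM, Hmga2 at 73.2 ± 26.2 TPM, Hmgn3 at 71.3 ± 9.53 TPM, Hmgb3 at 54.0 ± 6.73 TPM and Hmgn5 at 19.4 ± 2.97 TPM. Each gene exceeded the next one in 10 of 10 libraries except at 2 steps. Hmgn1 exceeded Hmga2 in 7 libraries and Hmga2 exceeded Hmgn3 in 6. The order of these 3 neighbours thus varied between libraries, and their differences were not tested. The level of Hmgb2 included a mean of 132 TPM from the incomplete transcript Hmgb2-202. Its complete transcript Hmgb2-201 had a mean of 87.6 TPM, below that of Hmgn1. The level of Hmgb1 likewise included means of 263 TPM from the incomplete Hmgb1-205 and 128 TPM from the retained-intron transcript Hmgb1-206. Its most abundant complete transcripts, Hmgb1-201 and Hmgb1-203, had 178 and 157 TPM, beside 421 TPM for Hmgn2-203. The place of Hmgb1 above Hmgn2 in TPM thus depends on the short transcripts. Hmga1 alone took 37.0 to 54.2% of the summed HMG TPM with Egfr WT PSCs and 49.5 to 58.9% with Egfr KO PSCs. The HMG sum was 2618 to 3998 TPM in the former and 3414 to 4719 TPM in the latter.

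**Figure D1:**
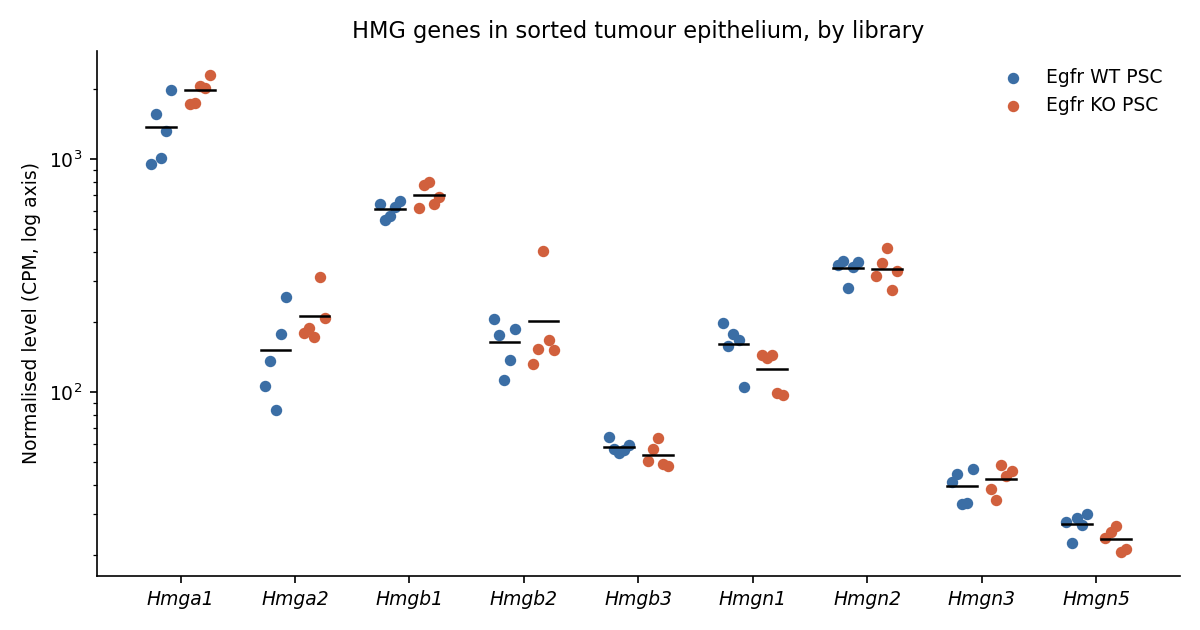
Level of each HMG gene in each library (CPM, log axis; blue, Egfr WT PSC; orange, Egfr KO PSC; n = 5 libraries each; horizontal lines, group means). Hmga1 stands highest in every library, and the groups overlap for all 9 genes.

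Between the groups, no HMG gene passed the threshold of an adjusted p of 0.05 (edgeR's quasi-likelihood test, Benjamini-Hochberg over 17495 genes); among all genes 0% were called. At an unadjusted p under 0.05, 1 of the 9 genes was counted, Hmga1, which was higher, against a background of 8.15% of all tested genes in either direction (1426) and 3.55% higher. No HMG gene had groups that did not overlap, against 1.52% of all genes. By sign alone, 5 genes were higher with Egfr KO PSCs and 4 lower (50.1% of all tested genes were higher), with a median log2 fold change of 0.09 beside 0.00041 over all genes. DESeq2 called 129 genes of the whole table where edgeR called 0; no HMG gene was among them.

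The HMGA genes had the highest log2 fold changes of the family. Hmga1 stood at 955, 1568, 1012, 1323 and 1989 CPM in the 5 control libraries (Egfr WT PSC). In the 5 knockout libraries (Egfr KO PSC) it stood at 1734, 1743, 2056, 2031 and 2309 CPM. In 4 of 5 control libraries it lay below every knockout library, while control replicate 5 lay among the knockout libraries. The means were 1369 ± 426 and 1974 ± 241 CPM (SD, n = 5 each), a log2 fold change of 0.53 (SE 0.19, 95% CI 0.11 to 0.95, edgeR adjusted p = 0.507). Without control replicate 5 the log2 fold change was 0.70. Adding the fibroblast score to the fit gave 0.82 (edgeR adjusted p = 0.443), and adding the macrophage score gave 0.50 (edgeR adjusted p = 0.982).

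Hmga2, the HMGA gene that is silent in most adult tissues, stood at 107, 137, 84.0, 177 and 255 CPM in control libraries. In knockout libraries it stood at 180.1, 189, 173, 312 and 209 CPM. The groups overlapped: control replicate 5 exceeded 4 of the knockout libraries, and 3 control libraries lay below all of them. The log2 fold change was 0.48 (SE 0.27, edgeR adjusted p = 0.677). It was 0.75 without control replicate 5, 0.31 without knockout replicate 4, 0.94 with the fibroblast score and 0.20 with the macrophage score as a covariate. The macrophage score differed between the groups as given above, and the part of either marker list in the difference was not tested.

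Among the HMGB genes, Hmgb1 differed little between groups. It stood at 645, 551, 572, 621 and 665 CPM in control libraries. In knockout libraries it stood at 616, 773, 797, 641 and 686 CPM, with 3 knockout libraries above every control library. Its log2 fold change was 0.20 (SE 0.11, 95% CI -0.03 to 0.43, edgeR adjusted p = 0.656). Hmgb2, the HMGB gene most tied to proliferating cells, stood at 207, 175, 113, 137 and 186 CPM in control libraries and at 133, 153, 402, 168 and 152 CPM in knockout libraries. Knockout replicate 3 stood apart at 402 CPM, and without it the log2 fold change of 0.30 (SE 0.29, edgeR adjusted p = 0.820) became -0.11. It was 0.68 with the fibroblast score, 0.51 with the macrophage score, 0.17 with the S phase and mitosis score and 0.11 with the number in the file name as a covariate. Hmgb3, an X-linked HMGB gene, ranged from 54.8 to 64.1 CPM in control libraries and from 48.3 to 63.8 CPM in knockout libraries (log2 fold change -0.12, edgeR adjusted p = 0.798). Adding the fibroblast or the macrophage score gave -0.0586 and -0.0498.

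Of the HMGN genes, which loosen chromatin compaction, 3 had negative log2 fold changes and Hmgn3 a positive one, none past the threshold. Hmgn1 stood at 198, 157, 178, 168 and 105 CPM in control libraries and at 144, 141, 145, 99.3 and 97.4 CPM in knockout libraries. This was the mirror of Hmga1 in its libraries: 4 control libraries lay above all knockout libraries and control replicate 5 lay among them. The log2 fold change of Hmgn1 was -0.36 (SE 0.18, 95% CI -0.75 to 0.03, edgeR adjusted p = 0.644). Adding the macrophage score to the fit gave -0.22 (edgeR adjusted p = 0.982). Hmgn2 ranged from 281 to 366 CPM and from 276 to 415 CPM, with a log2 fold change of -0.01 whose sign depended on the setting. Hmgn3 ranged from 33.2 to 47.1 CPM and from 34.5 to 48.8 CPM (log2 fold change 0.09), and Hmgn5 stood at 27.2 ± 2.79 and 23.5 ± 2.55 CPM (SD, n = 5 each; log2 fold change -0.21, edgeR adjusted p = 0.674). Adding the fibroblast score gave 0.23 for Hmgn3 and -0.13 for Hmgn5.

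**Figure D2:**
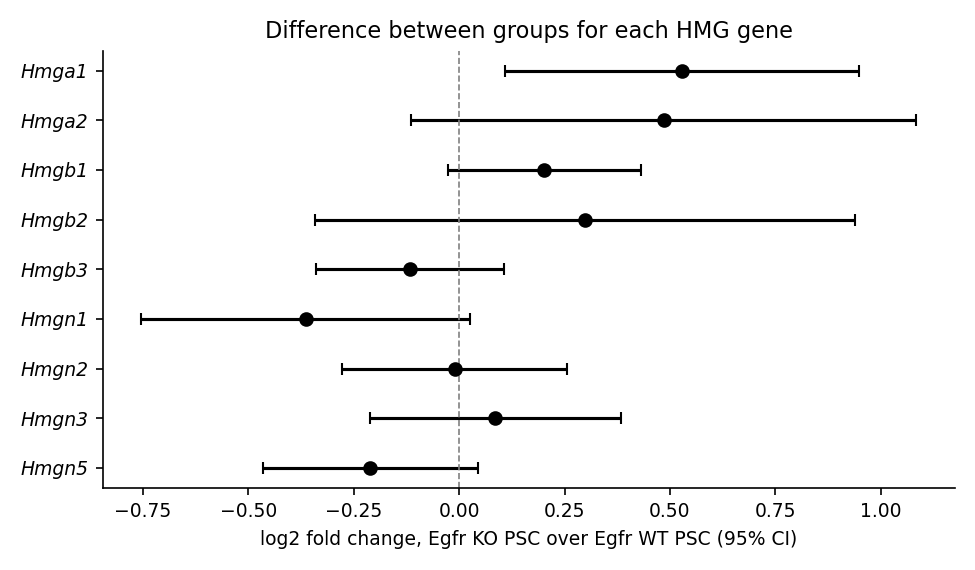
Log2 fold change of each HMG gene, Egfr KO PSC over Egfr WT PSC, with its 95% confidence interval from edgeR (n = 5 libraries each; dashed line, no difference). The interval of Hmga1 (0.11 to 0.95) is the only one of the 9 that leaves out 0, before adjustment for the genes tested.

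The spread between libraries was larger for some members than for others. Over the 10 libraries the highest level of Hmga2 was 3.71 times the lowest, while for Hmga1 it was 2.42 times and for Hmgb1 1.45 times. The coefficient of variation of Hmga1 was 31.1% in control libraries and 12.2% in knockout libraries, and that of Hmgb2 was 23.2% and 56.0%. The latter rested on knockout replicate 3.

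Several HMG genes varied together from library to library. Over all 36 pairs and 10 libraries, on log2 CPM, 3 pairs had an adjusted permutation p under 0.05. Hmgn1 was low where Hmga1 was high (Pearson r = -0.87, permutation p = 0.00188, adjusted 0.0338; Spearman rho = -0.88, permutation p = 0.00162). It was also low where Hmga2 was high (r = -0.86, permutation p = 0.00144, adjusted 0.0338; rho = -0.92, permutation p = 0.00055). Hmga1 and Hmga2 were high together (r = 0.84, permutation p = 0.00298, adjusted 0.0358; rho = 0.72, permutation p = 0.0238, adjusted 0.136). Without the 2 libraries farthest from the median of the first gene the r values were -0.82, -0.86 and 0.53, so the last relation rests in part on control replicates 1 and 3.

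The same relations were read within groups. With values centred within each group, r was -0.83 for Hmga1 and Hmgn1, -0.80 for Hmga2 and Hmgn1 and 0.77 for Hmga1 and Hmga2, with adjusted permutation p of 0.0511, 0.0511 and 0.0554. The permutations of centred values ran over all libraries and not within groups, with no allowance for the centring. Within the 5 control and the 5 knockout libraries taken alone, r was -0.92 and -0.73 for the first pair, -0.84 and -0.78 for the second, and 0.88 and 0.30 for the third. The relation of Hmga1 and Hmga2 was thus weaker in the knockout libraries by value, a difference that was not tested. Control replicate 5 and knockout replicates 4 and 5 stood apart with the lowest Hmgn1, 105, 99.3 and 97.4 CPM. Over the other 7 libraries, chosen on the values of Hmgn1 itself, r was -0.95 for Hmga1 and Hmgn1 and -0.78 for Hmga2 and Hmgn1. These values were not centred within groups, and the choice leaves no valid p-value. Every control library among the 7 had lower Hmga1 and higher Hmgn1 than every knockout library among them. The r of -0.95 thus includes the group difference and is not a relation within groups. On log2(TPM + 1), r for Hmga2 and Hmgn1 was -0.73 (adjusted permutation p = 0.0805), while that for Hmga1 and Hmgn1 was -0.83 (adjusted permutation p = 0.0380). On that scale 4 pairs had an adjusted permutation p under 0.05: this one, Hmga1 and Hmga2 (r = 0.83), Hmgb2 and Hmgn3 (r = 0.76) and Hmgb3 and Hmgn5 (r = 0.84), each at 0.0380.

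**Figure D3:**
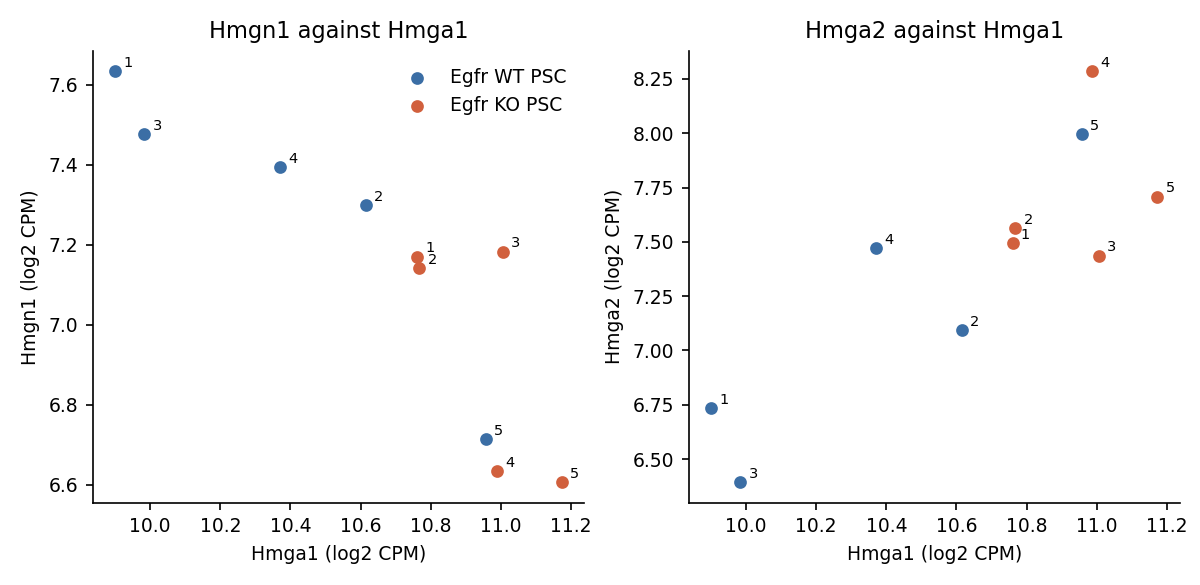
Hmgn1 (left) and Hmga2 (right) against Hmga1, each as log2 CPM, for 10 libraries (blue, Egfr WT PSC; orange, Egfr KO PSC; numbers are replicates). Hmgn1 descends with Hmga1 (r = -0.87) and Hmga2 ascends with it (r = 0.84), and control replicate 5 lies among the knockout libraries in both panels.

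On log2 CPM over all 10 libraries, the HMGB genes had the highest correlations with a proliferation score and the HMGA genes the lowest. The score was the mean log2 CPM of 26 genes of S phase and mitosis and lay between 5.50 and 6.00 in control libraries and between 5.31 and 6.58 in knockout libraries. It was related to Hmgb2 with r = 0.80 (permutation p = 0.00585, adjusted over 9 members 0.0527; rho = 0.76, permutation p = 0.0149). For Hmgb3 r was 0.74 (permutation p = 0.0140, adjusted 0.0628; rho = 0.78, permutation p = 0.0108), for Hmgb1 0.65 (adjusted permutation p = 0.111) and for Hmgn2 0.63 (adjusted permutation p = 0.111). For Hmga1 r was 0.08 (adjusted permutation p = 0.812) and for Hmga2 0.13 (adjusted permutation p = 0.812), close to Hmgn1 at 0.14. On this scale none passed the adjusted threshold over all libraries. On log2(TPM + 1), Hmgb2 (r = 0.79, adjusted permutation p = 0.0362), Hmgb3 (r = 0.78, adjusted permutation p = 0.0362) and Hmgn2 (r = 0.73, adjusted permutation p = 0.0446) did. Hmgb1 lay below Hmgn2 on that scale (r = 0.65, adjusted permutation p = 0.0887).

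With values centred within groups, r rose to 0.87 for Hmgb3 (adjusted permutation p = 0.00747), 0.81 for Hmgb2 (adjusted permutation p = 0.0203) and 0.77 for Hmgb1 (adjusted permutation p = 0.0246). Centred values were permuted over all libraries and not within groups, with no allowance for the centring, so these p-values are approximate. Without knockout replicates 1 and 3, the libraries with the lowest and highest score, r before centring was 0.50 for Hmgb2 and 0.59 for Hmgb3. It was 0.41 for Hmgb1, 0.38 for Hmgn2, -0.11 for Hmga1 and 0.23 for Hmga2, and the lowest was Hmgn3 at -0.15. The r of Hmgb2 over all libraries thus rests in part on these libraries. Within the control libraries taken alone, which hold neither of them, r for Hmgb2 was 0.82, and within the knockout libraries 0.81. The difference between the relations of HMGB and HMGA genes was not tested.

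**Figure D4:**
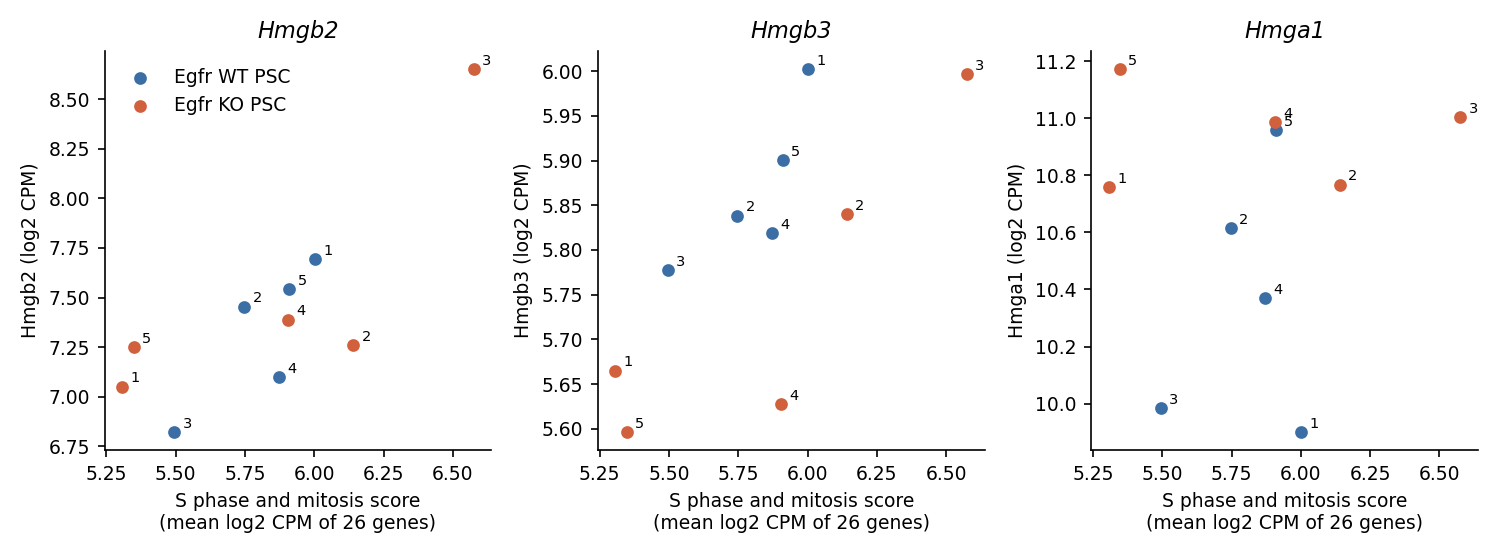
Hmgb2, Hmgb3 and Hmga1 (log2 CPM) against the mean log2 CPM of 26 S phase and mitosis genes in 10 libraries (blue, Egfr WT PSC; orange, Egfr KO PSC; numbers are replicates). Hmgb2 (r = 0.80) and Hmgb3 (r = 0.74) ascend with the score, with knockout replicate 3 at the top right for Hmgb2, and Hmga1 (r = 0.08) shows no slope.

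The promoters of the members differed in the CCAAT box, a motif bound by NF-Y and found in many cell cycle promoters. In the 250 bases before the start listed by RefSeq (GRCm38.p6), counting CCAAT on both strands, Hmgb2 held 4, Hmgb3 held 3 and the first Hmgb1 promoter held 3. The promoters of Hmgn1 and Hmgn5, whose correlations with the score were 0.14 and 0.31, held 2 each. The second Hmgb1 promoter and those of Hmga1, Hmga2 and Hmgn2 held 0, so the count did not follow the correlation with the score throughout. Of 32851 promoters in that table, 33.9% held at least 1 CCAAT and 2.79% held 3 or more. None of these CCAAT letters overlapped the other motifs searched, likewise on both strands. These were the GC box (GGGCGG), held by 32.7% of all promoters, the E-box (CACGTG), held by 6.02%, the AP-1 site (TGANTCA), held by 6.75%, and the TATA box (TATAAA), held by 12.4%. The promoters of Hmgb2 and Hmgb3, the members most closely related to the score, and of Hmga1, with a correlation near 0, are shown with CCAAT in capitals; the counts themselves came from a GRCm39 reference.
Hmgb2 promoter, chr8:57511593-57511842, plus strand: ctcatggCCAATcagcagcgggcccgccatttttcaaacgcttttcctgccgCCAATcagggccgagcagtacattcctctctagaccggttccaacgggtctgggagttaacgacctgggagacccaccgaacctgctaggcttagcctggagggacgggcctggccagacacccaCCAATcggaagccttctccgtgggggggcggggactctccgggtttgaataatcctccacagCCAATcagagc
Hmgb3 promoter, chrX:71555667-71555916, plus strand: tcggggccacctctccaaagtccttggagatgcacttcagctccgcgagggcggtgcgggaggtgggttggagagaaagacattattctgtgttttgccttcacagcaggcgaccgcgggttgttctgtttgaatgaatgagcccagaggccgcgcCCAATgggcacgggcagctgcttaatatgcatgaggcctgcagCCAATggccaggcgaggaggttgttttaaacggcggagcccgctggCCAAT
Hmga1 promoter, chr17:27556324-27556573, plus strand: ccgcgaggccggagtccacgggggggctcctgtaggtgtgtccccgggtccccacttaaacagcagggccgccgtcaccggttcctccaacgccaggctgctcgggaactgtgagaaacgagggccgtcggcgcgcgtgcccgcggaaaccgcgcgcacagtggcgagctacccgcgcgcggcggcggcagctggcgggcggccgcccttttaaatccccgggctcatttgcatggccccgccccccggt
The Hmga1 stretch held 72.8% G and C, a higher share than in 94.0% of the promoters, and 3 matches to GGGCGG. No promoter was listed for Hmgn3. A match is a description of letters, and no binding was measured.

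The 2 splice forms of Hmga1 shown above contributed about equally to its level. The transcripts holding the 33-base segment took 47.8 ± 1.66% of Hmga1 TPM in control libraries and 44.9 ± 1.72% in knockout libraries (SD, n = 5 each), a difference of -2.85 percentage points (exact two-sided permutation p = 0.0317; grouped by segment after seeing the data). The shares ran from 46.2 to 50.3% and from 42.4 to 46.9%, so the groups overlapped. The most abundant single transcript, Hmga1-201, which lacks the segment, took 39.9 ± 1.66% in control and 43.3 ± 1.42% in knockout libraries (exact two-sided permutation p = 0.0159, adjusted over 7 members 0.111). Hmga2 was almost entirely its full-length transcript Hmga2-201, with 98.2 to 99.7% of its TPM in every library. The 4 seed matches shown above lie in Hmga2-201, and the longest 3′ untranslated region of the gene, 3014 bases, also held 4.

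Hmgb1 was divided among its transcripts in 2 ways, and the division did not follow the groups. The 604-base transcript Hmgb1-205, annotated as incomplete at its 3′ end, took 41.5 to 47.8% of Hmgb1 TPM in 7 libraries and was listed at 0 in control replicate 3 and knockout replicates 1 and 2. In those 3 libraries the 654-base retained-intron transcript Hmgb1-206 took 35.8, 37.1 and 37.6%, against 5.89 to 11.9% in the other 7. The complete transcript Hmgb1-201 took between 16.8 and 28.4% in all libraries. By estimated counts Hmgb1-201 exceeded Hmgb1-205 everywhere, with 13039 to 22120 against 0 to 4048. In CPM the gene total did not stand apart in the 3 libraries, at 572, 616 and 773. In TPM it was 614, 638 and 788, against 703 to 1008 in the other 7, so control replicate 3 and knockout replicate 1 were lowest. The share of Hmgb1-205 did not differ between groups beyond its spread (exact two-sided permutation p = 0.333, adjusted 0.509).

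**Figure D5:**
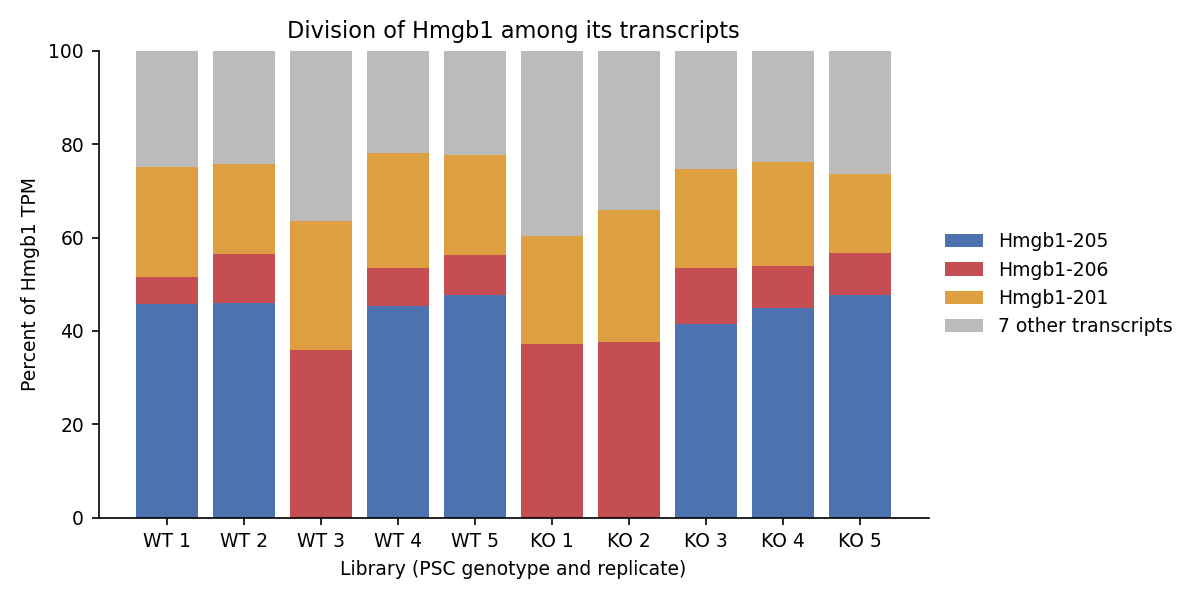
Share of Hmgb1 TPM in each of its main transcripts by library (stacked bars, percent; WT, Egfr WT PSC; KO, Egfr KO PSC; grey, the 7 other transcripts). Hmgb1-205 is at 0 in WT 3, KO 1 and KO 2, where Hmgb1-206 takes 35.8 to 37.6%.

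The division of the other genes was steadier. Hmgb2 was split between the incomplete Hmgb2-202, with 56.9 to 65.4% of its TPM, and the complete Hmgb2-201. By estimated counts the order was reversed, with 5042 to 15162 for Hmgb2-201 against 667 to 2206 for the 414-base Hmgb2-202. The main transcript of Hmgn1, Hmgn1-201, took 96.0 to 98.6% in 7 libraries and 85.8, 85.2 and 89.7% in control replicate 4 and knockout replicates 1 and 4. Most of the rest in these was the 261-base Hmgn1-202. By estimated counts it had only 62.5, 72.3 and 23.1 there, against 6981, 7271 and 4112 for Hmgn1-201. Main transcripts took 85.5 to 91.8% for Hmgb3, 96.5 to 98.0% for Hmgn2 and 48.1 to 58.8% for Hmgn3, and Hmgn5 had a single transcript. Among the 7 genes with a test of the main share, none passed an adjusted p of 0.05.

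The near-identical copies took a sizeable part of the HMGB counts. Copies were sought as genes matching a member's coding sequence at 95% identity or more over 150 bases or more. Hmgb1 had 55, of which 54 are annotated as pseudogenes and 1 as a lincRNA, and which together held 28.0 to 34.0% of the counts of parent and copies in each library. Gm15387, with the single A21G difference, was assigned 7285 to 10919 counts, and Gm21596 3508 to 6721. For Hmgb2 the copies held 22.4 to 25.5%, nearly all in Gm4739 with 1797 to 5324 counts. The share was 5.05 to 9.99% for Hmgn5 and at most 1.55% for the other genes, with no copy found for Hmga2 and Hmgn3. With copies added to the parent, Hmgb1 stood at 891 ± 70.1 and 1009 ± 130 CPM (SD, n = 5 each) with a log2 fold change of 0.18, and Hmgb2 at 215 ± 48.4 and 262 ± 148 CPM with 0.29, so both stayed under the threshold (edgeR adjusted p = 0.708 and 0.828). Whether a copy is transcribed or receives reads of its parent was not tested.

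Lists of linker histones, other HMG-box genes, the let-7 axis, HMGB1 receptors and partners, and S phase and mitosis genes held none called by edgeR. At an unadjusted p under 0.05 they held 8: Xpo5, Havcr2 and Uhrf1 higher with Egfr KO PSCs, and H1f0, Sox17, Myd88, Tlr2 and Gsdmd lower. That was 8 of 92 genes tested, 8.7%, near the 8.15% of all tested genes. Of the linker histones, which HMGN proteins displace, 6 of 7 were tested, 2 higher and 4 lower with Egfr KO PSCs, with a median log2 fold change of -0.19. H1f0, the replacement linker histone of resting cells, had 53.7 ± 5.78 and 41.9 ± 4.60 CPM (SD, n = 5 each; log2 fold change -0.36, edgeR adjusted p = 0.457), with overlapping groups, and H1f2 had 37.7 ± 14.4 and 25.1 ± 9.57 CPM. Of 30 other genes with an HMG box, 26 were tested, 13 higher and 13 lower. Smarce1, a subunit of the SWI/SNF remodelling complex, had 191 ± 17.4 and 217 ± 18.6 CPM (edgeR adjusted p = 0.655). Wdhd1, a replisome protein, had 19.5 ± 2.52 and 23.4 ± 4.94 CPM, and Hmgxb4 had 23.2 ± 2.85 and 26.3 ± 5.01 CPM.

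The let-7 axis was read from 17 tested genes of 18, of which 14 were higher and 3 lower with Egfr KO PSCs, with a median log2 fold change of 0.10. Xpo5, which exports microRNA precursors from the nucleus, was at 71.9, 62.8, 66.6, 67.0 and 53.4 CPM in control libraries. In knockout libraries it was at 72.3, 76.6, 76.3, 77.6 and 74.7 CPM. These groups did not overlap, as for 0.777% of all genes in this direction, yet Xpo5 was not called (log2 fold change 0.23, SE 0.09, edgeR adjusted p = 0.563). Lin28b, which blocks let-7 maturation, was close to the detection limit, from 0.0755 to 0.426 CPM in control and from 0.164 to 1.09 CPM in knockout libraries, and Lin28a was below the expression filter. Dgcr8, a partner of Drosha, had 14.9 ± 1.41 and 16.7 ± 2.5 CPM (SD, n = 5 each).

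Of the receptors and partners of extracellular HMGB1, 17 of 20 were tested, 6 higher and 11 lower, with a median log2 fold change of -0.14. Myd88, the adaptor of Toll-like receptors, had 76.3 ± 11.4 and 61.0 ± 8.53 CPM (edgeR adjusted p = 0.557), Tlr2 14.7 ± 3.97 and 9.76 ± 3.51 CPM, and Gsdmd, the pore protein of pyroptosis, 59.6 ± 19.0 and 36.9 ± 15.3 CPM (SD, n = 5 each). The groups overlapped for all 3. Macrophages also express these genes, and the macrophage score was lower with Egfr KO PSCs as given above; its part was not tested. Of the 26 genes of S phase and mitosis, 20 were higher and 6 lower, with a median log2 fold change of 0.11 (50.1% of all tested genes were higher). The median of their score was close in the groups, 5.87 in control and 5.91 in knockout libraries. Of all 10 libraries, knockout replicate 3 had the highest score (6.575) and knockout replicates 1 and 5 the lowest (5.307 and 5.348). Whether the 26 genes vary independently was not tested, so the count of signs does not show a group difference in proliferation. Uhrf1, which maintains DNA methylation, had 73.3 ± 10.0 and 105 ± 39.2 CPM (edgeR adjusted p = 0.607), Pcna, the sliding clamp of DNA replication, 141 ± 13.5 and 166 ± 24.4 CPM, and Rrm2, a subunit of ribonucleotide reductase, 159.6 ± 56.6 and 253 ± 173 CPM.

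Genes whose levels were most like those of 3 members were ranked by Pearson r over the 10 libraries among 9983 genes of at least 5 CPM. Ranking so many genes over 10 libraries yields high values by selection, so these are descriptions. For Hmga1 the nearest were Cfl1, an actin-severing protein (r = 0.97), Ncs1, a calcium sensor (0.96), Mrpl20 (0.96) and Rps18 (0.95), ribosomal proteins of mitochondria and cytosol. For Hmga2 they were Edil3, an integrin ligand (r = 0.95), Ercc1, a DNA repair endonuclease subunit, Unc13c and Rnasek (0.94 each). For Hmgb2 they were Fanca, of the Fanconi anaemia repair pathway (r = 0.96), Aak1, a kinase of endocytosis (0.95), Rbm8a, of the exon junction complex (0.95), and Ezh2, the catalytic subunit of PRC2 (0.94).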

How the data were processed

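RNA was extracted with TRIzol and a micro column kit and amplified with a low-input kit whose PCR cycles depended on RNA input, per the labels' protocols. The authors deposited, for each transcript of each of 10 libraries, an estimated count (expected count) and a TPM from Salmon 1.9.0 on GRCm39, per the submitters' processing notes. The sources used here do not give the annotation release. Effective lengths, also deposited by the authors, served as offsets in 1 alternative.

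Transcripts were assigned to genes with GENCODE M21 (GRCm38), for names and transcript sequences: 137063 of 147828 had a gene, with 98.1 to 98.7% of the counts. The estimated counts of a gene's transcripts were added and rounded to whole numbers. Groups were compared with edgeR 4.0.16 (R 4.3.3, TMM, default filter with minimum count 10). Log2 CPM used a prior count of 2. Transcript shares were compared over 252 assignments of 5 against 5 (smallest p 0.00794) for members with at least 2 transcripts of 0.5 TPM, and correlations with 100000 permutations. Copies were found with blastn 2.17.0. Scripts were tested on simulated data. Alternatives were DESeq2 1.42.0, limma 3.58.1 (voom with sample weights, and log2(TPM + 1)), other scalings, filters, covariates and transcript choices, and each library left out. No 2 libraries agreed within sampling noise.

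The members and gene lists were chosen with earlier results of these data known. All 9 members were named, then from each list that is not of cell types the 3 genes of lowest p with at least 5 CPM, and the 4 genes most like Hmga1, Hmga2 and Hmgb2, without predicted genes and pseudogenes. A gene that this rule names is not reported here. Other genes were named after their values were seen.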

Additional observations from a re-analysis of the deposited data

Results flagged for a closer look

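In 32 tests of whether the highest or lowest of 5 libraries stood apart from its group, 5 were past the 95% limit. Chance passes about 1 in 20. Hmga2 was 312 CPM in knockout replicate 4, against 173 to 209 CPM in the other 4 knockout libraries. Hmgb2 was 402 CPM in knockout replicate 3, against 133 to 168 CPM. Hmgn2 was 281 CPM in control replicate 3, against 345 to 366 CPM. The main transcript of Hmgb1 by mean TPM, Hmgb1-205, took 0% of its TPM in control replicate 3, against 45.3 to 47.8% in the other control libraries. The main transcript of Hmgn1 took 85.8% in control replicate 4, against 96.0 to 98.6%. Most of the rest was the 261-base Hmgn1-202, which had only 62.5 estimated counts in that library.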

How the results depend on the processing

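No HMG gene was called under any of 25 alternatives, and the sign of the group difference was the same in all 25 for Hmga1 (0.42 to 0.82), Hmga2 (0.20 to 0.94), Hmgb1, Hmgb3, Hmgn1, Hmgn3 and Hmgn5. Over all genes, edgeR called 0, DESeq2 129, limma voom 3, edgeR with library totals 1, edgeR without a filter 1, limma on log2(TPM + 1) 2 and edgeR with the S phase and mitosis score 3; leaving out each library gave 0 to 4. The log2 fold change of Hmgn2 changed sign with upper-quartile factors (0.0107), the fibroblast score (0.13) and the macrophage score (0.0914), and ran from -0.0859 to 0.0584 with libraries left out. That of Hmgb2 ran from -0.11 to 0.43, negative without knockout replicate 3. The main transcript share of Hmgn1 differed by -3.55 to 0.909 percentage points, positive without knockout replicate 1. Correlations near 0 changed sign on log2(TPM + 1) for Hmga1 and Hmgn2 (-0.0037), Hmga2 and Hmgn2 (-0.15) and Hmgb1 and Hmgn5 (-0.0440), and on centred values for Hmgb1 and Hmgn1 (0.0542) and Hmgb2 and Hmgn1 (0.0966). The causes were not tested. Adding near-identical copies was chosen after seeing the data. No paired analysis was possible because replicate numbers here only name libraries and the labels tie none across groups. Reads shared with copies limit Hmgb1 and Hmgb2, and 5 libraries a group limit what could be called.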
